A study of Homo sapiens with 4 samples.

Results

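Amino acid transporters are a set of 30 genes of the solute carrier families SLC1, SLC3, SLC7, SLC38, SLC43, SLC36, SLC6 and SLC16, given as a list of symbols. All 30 were found among the 28103 gene symbols of the count table, 6 of them at 0 in all 4 libraries, and the other 24 passed the filter on low counts. The RNA, selected for poly(A), came from HEL cells, an erythroleukaemia line of human origin labelled as erythroblast. The 2 groups were Ctrl, with a wild-type genotype, and AFF4 knockdown, with 2 libraries in each and the same RPMI-1640 medium with serum and antibiotics. The AFF4 protein holds together the super elongation complex, which helps paused RNA polymerase II into productive elongation. The sources used here give neither how the knockdown was made nor whether a group's libraries were separate cultures. All p-values therefore cover the spread among these 4 libraries, possibly a technical one.

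The libraries held between 14903878 and 19129008 counts. AFF4 itself had 1650 and 1033 counts in Ctrl, against 338 and 319 after knockdown, a log2 fold change of -2.07 (edgeR; SE 0.19, adjusted p = 0.0268), which matches the labels. All 18 erythroid and megakaryocytic markers examined were detected. In 11 the log2 fold change was negative and in 7 positive, where 51.2% of all tested genes were negative. Among the 18 markers 0 rose and 2 fell, HBG1 (-0.86) and ITGB3 (-0.87), where 0.346% of all tested genes rose and 0.295% fell. At an unadjusted p under 0.05, 2 markers were higher and 5 lower, where 6.79% of all tested genes were higher and 8.19% lower. HBG1 and ITGB3 lost their calls without knockdown 1 (edgeR adjusted p = 0.231 and 0.626) and without knockdown 2 (0.337 and 0.808). Markers of fibroblasts, epithelium, lymphocytes and macrophages summed to between 0.0553 and 2.41 CPM (counts scaled to library size) per library and list, with COL1A2, COL3A1, DCN, LUM, KRT5, KRT14, CD3D, CD3E, CD3G, C1QA and C1QB at 0 throughout. The only members of these lists that were tested, EPCAM, CD79A and CSF1R, had log2 fold changes of 0.18, 0.21 and -0.38 and did not pass.

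Cells take up amino acids through carriers that differ in substrate and driving force. Sodium-coupled carriers such as SLC1A5 and SLC38A2 load glutamine and small neutral amino acids, and exchangers then trade part of that pool for leucine and other essential amino acids. Several exchangers work only as a light chain of the SLC7 family bound to the heavy chain SLC3A2 (CD98), and other carriers release amino acids from lysosomes, where the kinase complex mTORC1 senses them. Many of these genes are known targets of the transcription factor ATF4, which responds to amino acid shortage.

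No transporter passed the test between knockdown and Ctrl. Of the 24 tested members, 0 rose and 0 fell in edgeR, against 0.641% of all 13572 tested genes called, 0.346% higher and 0.295% lower. In DESeq2 0 members passed (3.05% of all tested genes) and in limma-voom 0 (0.678%). At an unadjusted p under 0.05, 3 members were higher (SLC38A6, SLC38A7 and SLC36A1) and 0 lower, where 6.79% of all tested genes were higher and 8.19% lower. The median log2 fold change of the members was -0.07 and that of all tested genes -0.0089, with 14 members negative and 10 positive. In most members the difference was small: 19 of 24 differed by less than 1.3-fold and 4 by at least 1.5-fold. Among the 4 was SLC7A8, on 5 to 16 counts per library. The median absolute log2 fold change was 0.23 in the members and 0.20 in all tested genes.

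The 3 members with the smallest p values all lay higher in the knockdown, from low levels. The stretch of 100 bases before each of their RefSeq start sites (GRCh38.p14, the assembly also called hg38) is shown. These 3 were chosen as the only members with an unadjusted p under 0.05 in edgeR. Each runs 5′ to 3′ in the direction of the gene, and capitals mark a match to any of 3 motifs searched on both strands: TGATGNAAN, the C/EBP-ATF response element that ATF4 reads, CACGTG, the E-box, and TGACNNNGC, the antioxidant response element.
SLC38A6, chr14:60981145-60981244, plus strand: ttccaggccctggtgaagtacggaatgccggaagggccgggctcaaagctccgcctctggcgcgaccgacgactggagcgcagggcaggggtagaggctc
SLC38A7, chr16:58684771-58684870, minus strand: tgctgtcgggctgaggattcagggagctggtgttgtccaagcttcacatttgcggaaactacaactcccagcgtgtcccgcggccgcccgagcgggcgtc
SLC38A7, chr16:58684332-58684431, minus strand: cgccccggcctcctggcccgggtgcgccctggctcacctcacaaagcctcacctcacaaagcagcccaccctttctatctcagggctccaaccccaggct
SLC36A1, chr5:151436946-151437045, plus strand: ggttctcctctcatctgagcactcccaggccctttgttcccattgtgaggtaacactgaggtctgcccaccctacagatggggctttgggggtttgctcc
SLC36A1, chr5:151447503-151447602, plus strand: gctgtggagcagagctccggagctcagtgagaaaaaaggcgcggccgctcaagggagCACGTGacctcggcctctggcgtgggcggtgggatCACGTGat
Only the second SLC36A1 start has matches in these stretches, a pair of E-boxes whose first bases lie 43 and 8 bases before the start, and in SLC38A7 an E-box begins at base 15 after one start, outside the stretch shown. Gene counts do not tell which start was used.

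SLC38A6, a little-studied member of the sodium-coupled SLC38 family (chromosome 14, 60981114 to 61083733, plus strand), had the largest difference. It had 58 and 37 counts in Ctrl, against 116 and 102 after knockdown, or 3.11 and 2.48 CPM against 6.41 and 6.06 CPM. Both knockdown libraries were above both Ctrl libraries, by far more than the libraries of a group differed. Both lay above both Ctrl libraries in 23.1% of all tested genes too, and SLC38A6 was picked by its p on these same libraries. The mean went from 2.79 ± 0.444 to 6.24 ± 0.250 CPM (SD, n = 2 in both groups), giving a log2 fold change of 1.15 ± 0.24 (SE), which is 2.22-fold, but the gene did not pass over all genes (edgeR adjusted p = 0.0860). Its exons share 4.76% of their length with TRMT5, a tRNA methyltransferase gene on the opposite strand, which had a log2 fold change of -0.05. With any 1 library left out the log2 fold change of SLC38A6 lay between 1.004 and 1.33, although without either knockdown library the edgeR adjusted p was 0.676 or 0.626. SLC38A6 passed with no filter on low counts (edgeR adjusted p = 0.00518), in a fit that called 3.89% of all genes then tested. It also passed after a correction for GC content described below (edgeR adjusted p = 0.00204), in a fit that called 28.2%. It did not pass in DESeq2 (adjusted p = 0.0746) or in limma-voom (adjusted p = 0.0941).

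SLC38A7, which exports glutamine and asparagine from lysosomes (chromosome 16, 58665109 to 58685104, minus strand), had 74 and 71 counts in Ctrl, against 131 and 104 after knockdown. These are 3.96 and 4.75 CPM against 7.24 and 6.18 CPM, again without overlap. The log2 fold change was 0.63 (± 0.23 SE, edgeR adjusted p = 0.268). SLC36A1, a proton-coupled carrier of small neutral amino acids at lysosomes and the cell surface (chromosome 5, 151437046 to 151492381, plus strand), had 111 and 66 counts in Ctrl, against 143 and 141 after knockdown, or 5.94 and 4.42 CPM against 7.90 and 8.37 CPM. Its groups did not overlap either, although the Ctrl libraries were further apart than the knockdown libraries. The log2 fold change was 0.64 (± 0.23 SE, edgeR adjusted p = 0.261).

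**Figure D1:**
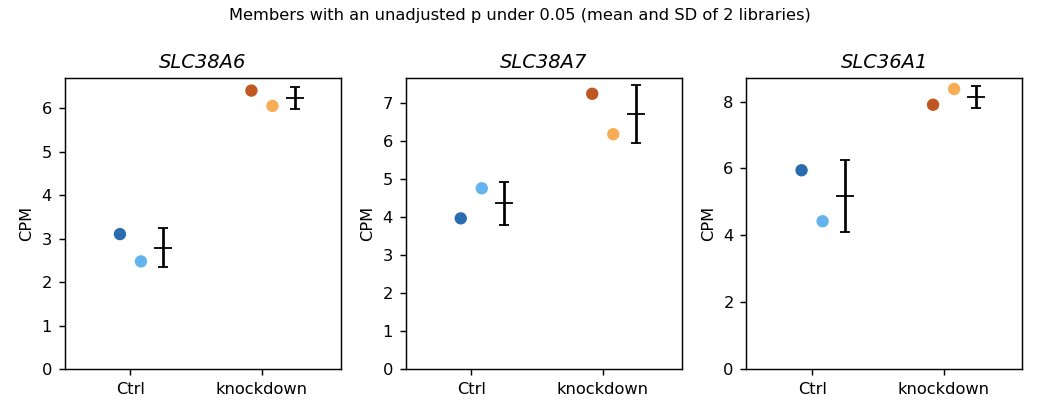
CPM of SLC38A6, SLC38A7 and SLC36A1 in each library (points, Ctrl in blue and knockdown in orange), with the mean and SD of the 2 libraries of a group beside them; the axes start at 0. In each gene both knockdown libraries lie above both Ctrl libraries, with SLC38A6 at 6.41 and 6.06 CPM against 3.11 and 2.48 CPM. The genes were chosen by p on these same libraries, and 23.1% of all tested genes lay higher without overlap.

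Other carriers known from lysosomes had smaller differences. SLC38A9, the lysosomal arginine sensor that signals to mTORC1, had 13.97 and 12.0 CPM in Ctrl, against 11.1 and 10.6 CPM after knockdown, a log2 fold change of -0.26 ± 0.20 (SE). SLC36A4, a high-affinity relative of SLC36A1, ranged from 13.99 to 17.99 CPM with overlapping groups (0.03 ± 0.20). Of the further lysosomal carrier genes listed, 7 were in the count table, 6 were tested and 0 passed. In that list the cystine exporter CTNS, the carrier mutated in cystinosis, had 0.52 ± 0.19 (edgeR adjusted p = 0.272), the histidine and peptide carrier SLC15A4 had -0.29 ± 0.18, and the median was -0.03.

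HEL cells expressed a few transporters at high levels and many at low ones. The 30 genes together took between 1640 and 2021 CPM per library, and the 3 with the highest CPM in a library made up 48.2% to 51.9% of that. To compare genes, levels were divided by the summed exon length of each gene (RPKM). On this scale SLC1A5, the main glutamine carrier of many proliferating cells, came first with 94.9 and 146.8 RPKM in Ctrl, against 91.1 and 97.9 RPKM after knockdown. SLC43A3, placed with its family although it is known to carry purine nucleobases, followed with 67.4 and 78.8 RPKM in Ctrl, against 67.9 and 68.5 RPKM after knockdown. Their ranges did not meet each other or that of any other member. An antisense gene that the count table does not list shares 23.4% of the exon length of SLC1A5, and an unlisted gene on the same strand 29.9% of that of SLC43A3.

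Next came 4 genes, each of which overlapped its neighbour in the order. The leucine exchanger SLC7A5 (LAT1) ranged from 27.5 to 43.1 RPKM over the 4 libraries and SLC38A2 (SNAT2), which starved cells induce, from 24.6 to 33.7 RPKM. The arginine and lysine carrier SLC7A1 (CAT1) ranged from 22.8 to 26.5 RPKM and the heavy chain SLC3A2 from 19.7 to 25.7 RPKM, and although these ranges overlapped, SLC7A1 was above SLC3A2 in each of the 4 libraries. Below them were SLC38A5, the erythroid-expressed SNAT5 (10.6 to 13.4 RPKM), the leucine facilitator SLC43A1, known as LAT3 (9.78 to 13.3 RPKM), and the taurine carrier SLC6A6 (9.56 to 11.4 RPKM), which also overlapped.

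SLC38A10, SLC1A4, SLC7A6 and SLC38A1 lay between 4.04 and 9.37 RPKM in all libraries, and the remaining 11 detected members at or below 1.86 RPKM. SLC7A7 and SLC7A8, light chains best known from epithelia, had between 5 and 20 counts per library. The glutamate carriers SLC1A1 and SLC1A3, the cationic carriers SLC7A2 and SLC7A3, the glutamine carrier SLC38A3 and the small neutral exchanger SLC7A10 had 0 counts in every library. A count of 0 allows up to 3 counts, or between 0.161 and 0.201 CPM per library (counting error only).

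**Figure D2:**
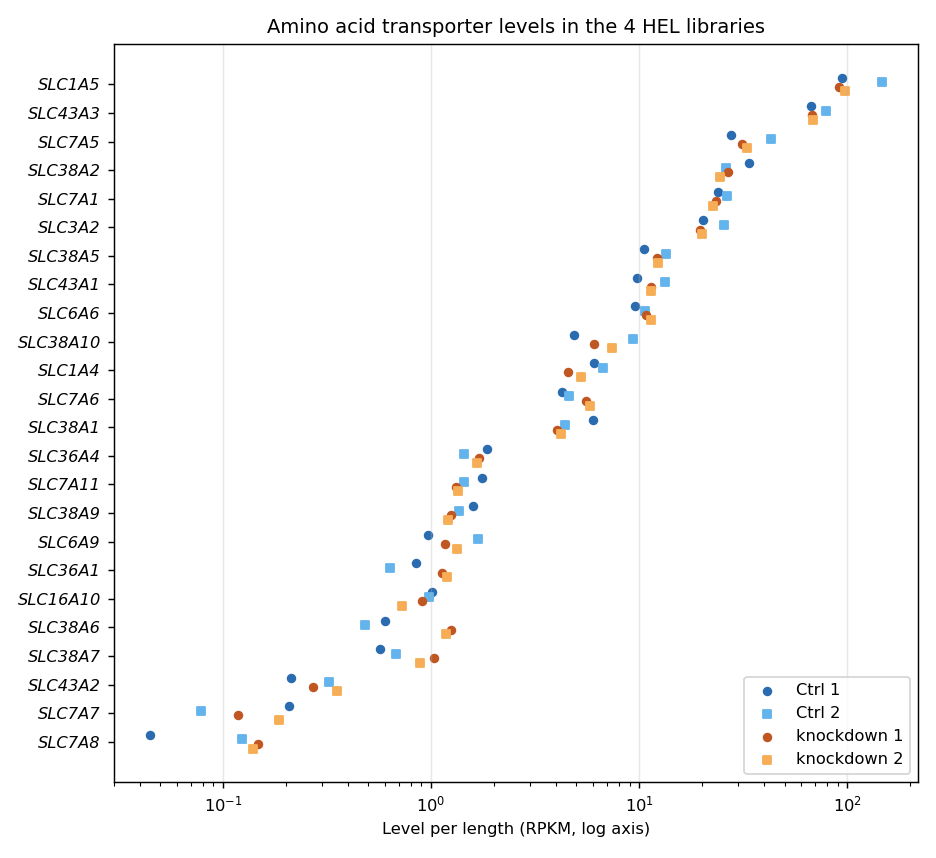
Level per length (RPKM, log axis) of the 24 detected transporters in each of the 4 libraries, ordered by their mean; circles are replicate 1 and squares replicate 2. SLC1A5 and SLC43A3 stand above the rest, and in 17 of the 24 genes the 2 Ctrl libraries differ by more than knockdown and Ctrl do. The first difference is of single libraries and the second of group means, which vary less.

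The glutamine and neutral amino acid exchangers of the SLC1 family both had negative values. SLC1A4 (ASCT1), which exchanges serine and alanine, had 41.9 and 46.7 CPM in Ctrl, against 31.6 and 36.4 CPM after knockdown, without overlap, a log2 fold change of -0.38 (edgeR; SE 0.18, adjusted p = 0.379). SLC1A5 had 316.2 and 489.3 CPM in Ctrl, against 303.6 and 326.1 CPM after knockdown. Here Ctrl 1 lay inside the range of the knockdown libraries and only Ctrl 2 was high. The log2 fold change of SLC1A5 was -0.35 ± 0.21 (SE; edgeR adjusted p = 0.500), and without Ctrl 2 it was -0.01.

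Among the heavy chain and its partners the light chains differed in sign. SLC3A2 had 104.9 and 132.8 CPM in Ctrl, against 102.0 and 104.3 CPM after knockdown, a log2 fold change of -0.20 (edgeR; SE 0.17, adjusted p = 0.655). SLC7A5 had 130.6 and 204.7 CPM in Ctrl, against 147.6 and 157.0 CPM after knockdown (-0.14 ± 0.22, edgeR adjusted p = 0.856), with both knockdown libraries between the Ctrl libraries. The ratio of SLC7A5 to SLC3A2 in RPKM was 1.36 and 1.68 in Ctrl, against 1.58 and 1.64 after knockdown, so it also overlapped. The ratio of SLC7A6 to SLC3A2 was 0.210 and 0.179 in Ctrl, against 0.281 and 0.290 after knockdown, without overlap. That of SLC7A11 overlapped, as did that of SLC7A7, and that of SLC7A8, on few counts, did not. The cystine and glutamate exchanger SLC7A11 (xCT), which supplies cystine for glutathione, had 17.0 and 13.9 CPM in Ctrl, against 12.8 and 13.0 CPM after knockdown (-0.26 ± 0.20).

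SLC7A6, an exchanger of cationic for neutral amino acids, went the other way, with 32.3 and 34.8 CPM in Ctrl, against 42.1 and 44.2 CPM after knockdown. These groups did not overlap, but the log2 fold change of 0.36 ± 0.17 (SE) did not pass (edgeR adjusted p = 0.377). Of the exon length of SLC7A6, 44.4% is shared with SLC7A6OS on the opposite strand, which had a log2 fold change of -0.58 (edgeR adjusted p = 0.205). No source used here gives the strand setting of the counting, and reads of this pair may not have been told apart. SLC7A7 and SLC7A8 were at 0.02 ± 0.52 and 0.82 ± 0.51 on the log2 scale (SE). At this depth only differences well beyond these errors could pass, and that of SLC7A8, larger than its SE, did not (edgeR adjusted p = 0.518).

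Of the sodium-coupled SLC38 carriers at the cell surface, SLC38A1 and SLC38A2 had negative values. SLC38A1 (SNAT1) had 60.3 and 44.1 CPM in Ctrl, against 40.5 and 42.3 CPM after knockdown, a log2 fold change of -0.34 (edgeR; SE 0.20, adjusted p = 0.503). SLC38A2 had 222.7 and 172.3 CPM in Ctrl, against 177.3 and 162.1 CPM after knockdown (-0.22 ± 0.17, edgeR adjusted p = 0.627), with overlap. In both genes Ctrl 1 was the highest library, the reverse of SLC1A5 and SLC7A5, where it was Ctrl 2. SLC38A5 had 42.4 and 54.0 CPM in Ctrl, against 48.7 and 49.5 CPM after knockdown (0.03 ± 0.18, edgeR adjusted p = 0.966). Elsewhere in the SLC38 family, not counted here among the carriers at the cell surface, SLC38A10 ranged from 37.6 to 72.3 CPM, both extremes in Ctrl (-0.08 ± 0.30).

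The remaining carriers had differences within their errors or close to them. SLC7A1, the only cationic carrier detected, had 185.0 and 203.8 CPM in Ctrl, against 181.0 and 175.2 CPM after knockdown, a log2 fold change of -0.13 (edgeR; SE 0.14, adjusted p = 0.761). In the SLC43 family all groups overlapped. SLC43A1 had 34.5 and 47.1 CPM in Ctrl, against 40.4 and 40.3 CPM after knockdown (-0.01 ± 0.20, edgeR adjusted p = 0.985). SLC43A3 had 304.2 and 356.0 CPM in Ctrl, against 306.6 and 309.6 CPM after knockdown (-0.10 ± 0.14, edgeR adjusted p = 0.828). SLC43A2 (LAT4), its leucine-carrying relative, ranged from 2.25 to 3.74 CPM (0.23 ± 0.30). SLC6A6 ranged from 78.9 to 94.4 CPM (0.14 ± 0.15). The glycine carrier SLC6A9 (GlyT1), which feeds glycine to haem synthesis in red cell precursors, ranged from 4.98 to 8.64 CPM (-0.07 ± 0.30) and the aromatic amino acid carrier SLC16A10 from 8.20 to 11.4 CPM (-0.29 ± 0.21). In all, 6 members lay higher and 7 lower in the knockdown without overlap between the groups, where 23.1% and 23% of all tested genes did so.

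**Figure D3:**
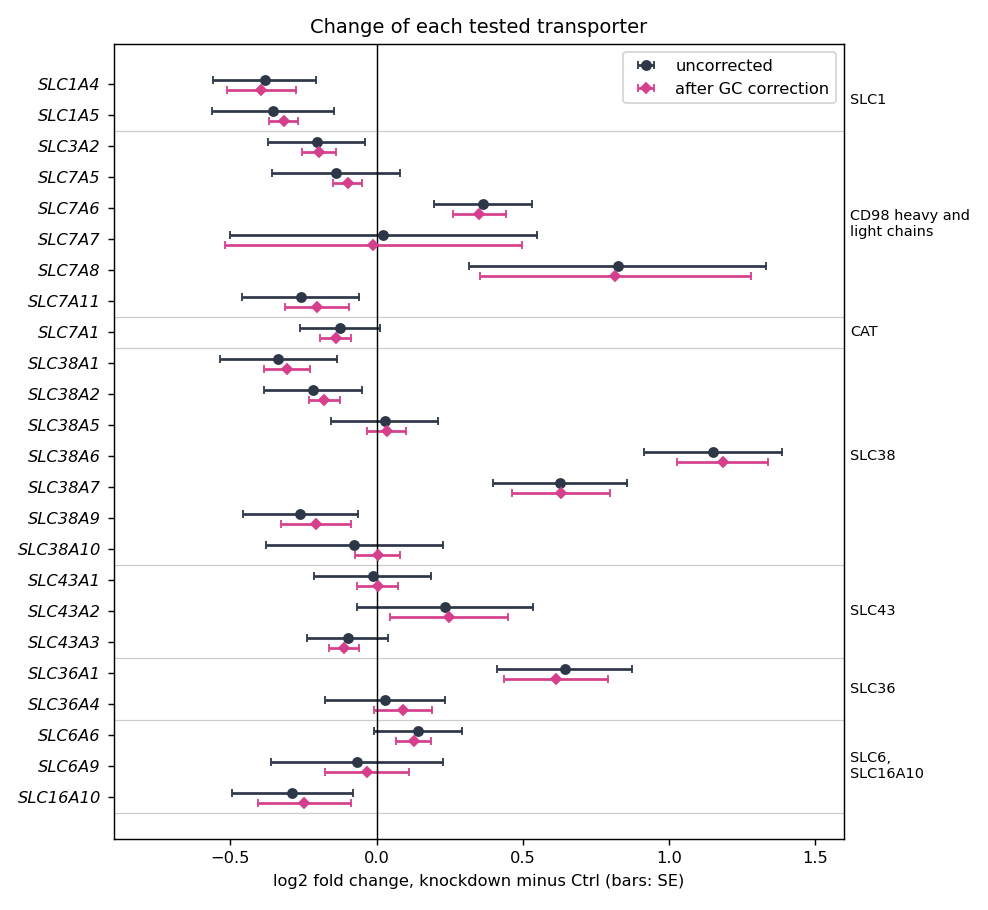
log2 fold change of each of the 24 tested transporters, knockdown minus Ctrl, grouped by family; dark circles are the uncorrected values and pink diamonds the values after the GC correction, with bars of 1 SE. SLC38A6 at 1.15 stands apart from the others, and the correction mostly shortens the error bars and leaves the points in place.

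The Ctrl libraries differed from each other by more than knockdown and Ctrl did in 17 of the 24 transporters, as in 64.3% of all tested genes. The median absolute log2 difference was 0.35 between the Ctrl libraries, 0.08 between the knockdown libraries and 0.23 between knockdown and Ctrl. These measures are unlike, since differences within a group are of single libraries and those between groups are of group means. A mean varies less than a single library, so the former would often be larger without any effect or excess spread. The difference between the Ctrl libraries followed the GC content of the transcripts, which ran from 35.0% to 64.3% over these genes. Ctrl 2 lay above Ctrl 1 by 0.94 in the GC-rich SLC38A10, 0.65 in SLC7A5 and 0.63 in SLC1A5, and below it by 0.45, 0.37 and 0.36 in the GC-poor SLC38A1, SLC38A2 and SLC36A4. Spearman's rho was 0.817 over the 24 transporters and 0.815 over 13217 tested genes, given as a description since all points share the same libraries. The difference between the knockdown libraries, as knockdown 2 minus knockdown 1, also rose with GC content, with a rho of 0.406 over these 13217 genes. The difference between knockdown and Ctrl did not follow GC content in this way (rho of 0.138 and -0.00426).

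**Figure D4:**
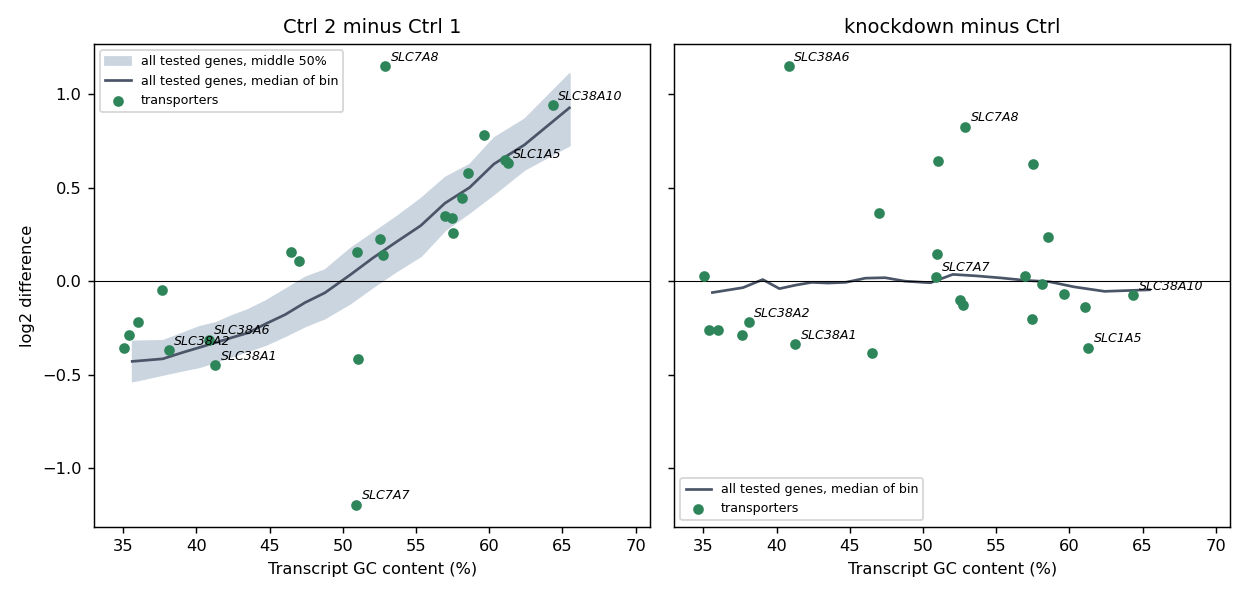
log2 difference between the Ctrl libraries (left) and between knockdown and Ctrl (right) against transcript GC content, for the 24 transporters (points) and all tested genes (line, median of 20 bins; shading, the middle 50% in the left plot). The Ctrl difference climbs with GC content, to 0.94 in SLC38A10, with the low-count SLC7A7 (-1.20) and SLC7A8 (1.15) away from the trend, while the median knockdown difference stays near 0.

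Removing the GC trend from each library left the sign of 21 of the 24 values as it was and made the errors smaller. After it 9 transporters passed, 4 higher (SLC38A6, SLC38A7, SLC36A1 and SLC7A6) and 5 lower (SLC1A4, SLC1A5, SLC3A2, SLC38A1 and SLC38A2), in a fit that called 28.2% of all tested genes, 14.2% higher and 14.1% lower. The corrected log2 fold changes were 1.18 ± 0.16 for SLC38A6, 0.63 ± 0.17 for SLC38A7, 0.61 ± 0.18 for SLC36A1 and 0.35 ± 0.09 for SLC7A6. They were -0.40 ± 0.12 for SLC1A4, -0.32 ± 0.05 for SLC1A5, -0.31 ± 0.08 for SLC38A1, -0.20 ± 0.06 for SLC3A2 and -0.18 ± 0.05 for SLC38A2. By level per length the 5 lower ones ranked 1, 4, 6, 11 and 13 among the detected transporters and the 4 higher ones 12, 18, 20 and 21. Errors were larger in the low-count SLC38A6, SLC38A7 and SLC36A1, where only large differences could pass. Whether level and direction go together was not tested, and the ranks were not compared with those of all genes.

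Leaving out either Ctrl library also raised the number of transporters that passed, to 12 without Ctrl 1 (44% of all tested genes) and 15 without Ctrl 2 (48.4%). In these fits the spread comes from the closely matched knockdown libraries and the lone Ctrl library is assumed to vary like them. SLC7A5 (-0.42 without Ctrl 1 and 0.22 without Ctrl 2) and SLC38A10 (-0.47 and 0.47) passed in both with opposite signs. SLC1A4, lower, and SLC38A6, SLC38A7, SLC36A1 and SLC7A6, higher, passed with 1 sign in both of these fits and after the GC correction. That is 5 of 24, where 15.9% of all tested genes did so. With no filter 1 transporter passed, SLC38A6 (3.89% of all genes then tested). The count was 0 with RLE scaling (0.648%), library-size scaling (0.545%), a stricter filter (0.0462%), and without knockdown 1 (0.331%) or knockdown 2 (0.366%).

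Genes that work beside the transporters were taken from lists. Of 37 tested genes of amino acid sensing by mTORC1, 0 passed, 23 were positive and 14 negative, where 51.2% of all tested genes were negative. The median was 0.12 in this list and -0.0089 in all tested genes. The largest differences there were those of SEC13, a GATOR2 and coat protein subunit (-0.92 ± 0.17, edgeR adjusted p = 0.0718), and of TFEB, the transcription factor of lysosomal genes (-0.87 ± 0.33, 0.277). Of 21 tested genes of amino acid synthesis and the ATF4 response, 2 fell (ATF3, a stress-induced transcription factor, and PSAT1, a serine synthesis enzyme) and 0 rose, where 0.295% of all tested genes fell and 0.346% rose. In this list 15 were negative, where 51.2% of all tested genes were, and the median was -0.40. Without knockdown 1 both lost their calls (edgeR adjusted p = 0.0960 for ATF3 and 0.672 for PSAT1), and without knockdown 2 PSAT1 did (0.702). ATF4 mRNA was at 277.4 ± 32.5 CPM in Ctrl, against 249.3 ± 2.79 CPM after knockdown (log2 fold change -0.15 ± 0.14), and ATF4 is controlled largely at translation, which these data do not measure. ASNS, the asparagine synthetase and a standard ATF4 target, had only 11 and 19 counts in Ctrl, against 5 and 6 after knockdown and did not pass the filter on low counts.

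In the glutathione and NRF2 list 0 of 13 passed, with GCLC, the catalytic subunit of glutathione synthesis, at 0.42 ± 0.16 and the glutathione-degrading GGT1 at -1.14 ± 0.55. GGT1 had between 4 and 18 counts per library, and its value was -0.53 without knockdown 1 and -2.09 without knockdown 2. Without Ctrl 1 it was -1.47 and passed (edgeR adjusted p = 0.0206). NFE2L2, the gene of NRF2, was at 0.01 ± 0.17. In the list of glutamine, leucine and arginine metabolism 0 of 14 passed. There the arginase ARG2, which breaks down arginine, had -0.65 ± 0.19 (edgeR adjusted p = 0.181). MYC, a known activator of SLC1A5 and SLC7A5, had 437.2 ± 12.6 CPM in Ctrl, against 549.9 ± 14.4 CPM after knockdown, a log2 fold change of 0.33 ± 0.12 (edgeR adjusted p = 0.275).

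Carriers outside the set were mostly silent at the cell surface. Of 21 further plasma membrane carriers 15 were at 0 in all libraries and only SLC6A19, a neutral amino acid carrier best known from gut and kidney, was tested, with 83.1 ± 22.3 CPM in Ctrl, against 61.9 ± 2.74 CPM after knockdown (-0.42 ± 0.21, edgeR adjusted p = 0.412). Of 12 tested mitochondrial carriers 0 passed, with a median of -0.05. The aspartate and glutamate carrier SLC25A13 had 0.76 ± 0.19 (edgeR adjusted p = 0.126) and the sideroflexin SFXN2 0.65 ± 0.17 (0.152).

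Across the promoters of the members, the 3 motifs were present in a minority. RefSeq promoters, each covering 250 bases before to 50 after a start, were found for 24 of the 30 members, with 45 starts. The C/EBP-ATF response element was in 6 of these 45 (13.3%) and in 3.61% of all 35116 promoters in the table. The 6 were in SLC1A3, SLC1A4, SLC1A5, SLC3A2, SLC7A1 and SLC38A1. The E-box was in 8 (17.8%) and in 7.26% of all promoters. The 8 were in SLC1A5, SLC7A5, SLC7A7, SLC7A8, SLC36A1, SLC38A5, SLC38A7 and SLC43A1. The antioxidant response element was in 7 (15.6%) and in 13.3% of all promoters. Whether the member shares differ from those of all promoters was not tested. A match is a run of letters and not a measured site.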

How the data were processed

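Poly(A) RNA libraries of HEL cells, 2 labelled Ctrl and 2 labelled AFF4 knockdown, were analysed from the authors' deposited whole-number counts of reads per gene symbol. Build hg38 and fastp 0.13.1, HISAT2 2.1.0 and featureCounts 1.6.1 are named, per the submitters' processing notes. No source used here gives the annotation, the strand setting or how multi-mapped reads were treated. How reads shared by paralogs or by genes on opposite strands were counted, if at all, is therefore not known. Per the labels' protocols the libraries mark strand and were amplified by PCR, and counting intervals therefore cover counting error only.

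The test was run in edgeR 4.0.16 under R 4.3.3. The filterByExpr defaults (count at least 10, total at least 15) kept 13572 genes. Libraries were scaled by TMM, so a change shared by all genes would not show. A quasi-likelihood F test, with group alone in the model, was run on all 4 libraries, two-sided, with Benjamini-Hochberg adjustment over all tested genes and a threshold of 0.05. The SE is the size of the log2 fold change over the root of F. CPM use the TMM-scaled sizes. Differences between libraries of a group are of log2 CPM with a prior count of 2. RPKM divide CPM by the summed exon length in GENCODE v29 (GRCh38), which is one length for all isoforms. Of the symbols 25862 matched by name, 154 through another symbol and 2087 did not. GC content is that of the longest transcript and was known for 97.4% of tested genes.

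The members and lists were chosen with earlier results of these data known. Every member is named, and full values are given for members with an unadjusted p under 0.05 and those with the highest RPKM. From other lists the members that passed are named, or else the 2 with the smallest p. One gene that this rule takes is not reported here. The overlapping genes TRMT5 and SLC7A6OS were named after values were seen. Alternatives were RLE and library-size scaling, no filter, a minimum of 5 CPM in 2 or more libraries, DESeq2 1.42.0, limma-voom (limma 3.58.1), the replicate number as a block, a GC correction (lowess of log-CPM on GC content in each library, span 0.4, as an offset) with and without the block, each library left out, and a threshold of 0.01.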

Additional observations from a re-analysis of the deposited data

How the results depend on the processing

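Of the 24 tested transporters, 0 passed in edgeR with TMM, RLE or library-size scaling, in DESeq2, in limma-voom or at a threshold of 0.01. With the stricter filter 21 were tested and 0 passed. With no filter 1 passed (SLC38A6), after the GC correction 9, after the GC correction with the replicate block 10, and with 1 library left out between 0 and 15. The count over all genes was 87 and became 734 with no filter, 5 with at least 5 CPM in at least 2 libraries, 406 in DESeq2, 3834 after the GC correction, 3 at a threshold of 0.01, and between 46 and 6722 with 1 library left out. The member median was -0.07 and ranged from -0.12 to 0.11 with 1 library left out. With the stricter filter it was -0.14, with 16 of 21 members negative. AFF4 lost its call with the stricter filter (-2.10, edgeR adjusted p = 0.0552) and at a threshold of 0.01 (-2.07). ATF3, PSAT1, HBG1 and ITGB3 lost theirs in the same 2 settings (edgeR adjusted p = 0.0654, 0.0610, 0.0686 and 0.0654 with the stricter filter). These genes also lost calls with a knockdown library left out, as described above.

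With the replicate number as a block 888 of 13572 genes and 1 transporter, SLC38A6, passed (edgeR adjusted p = 0.00187), and 5330 genes with the GC correction and the block. The labels do not say that a number marks a shared culture or day. The deviations of Ctrl 1 and knockdown 1 from their group means had a correlation of 0.285 across 13572 genes.

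Values near 0 changed sign. SLC43A1 was 0.013 with library-size scaling, 0.0076 in limma-voom, 0.0018 with the block, 0.0041 after the GC correction and 0.0032 with both. SLC38A10 was 0.0029 in limma-voom, 0.0040 after the GC correction and 0.0063 with the block too, and SLC7A7 was -0.012 after the GC correction. With the stricter filter SLC38A5 was -0.010, SLC36A4 -2.98e-04 and NFE2L2 -0.020.

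With 1 library left out, these ranged across 0: SLC38A5 -0.13 to 0.21, SLC43A2 -0.049 to 0.55, CD79A -0.013 to 0.45, TRMT5 -0.15 to 0.063, SLC7A5 -0.42 to 0.22, SLC7A7 -0.47 to 0.93, SLC38A10 -0.47 to 0.47, SLC43A1 -0.22 to 0.22, SLC43A3 -0.21 to 0.017, SLC36A4 -0.14 to 0.23, SLC6A9 -0.42 to 0.37, EPCAM -0.16 to 0.70 and NFE2L2 -0.14 to 0.18.

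The precision rests on 2 libraries a group, and SLC7A7 and SLC7A8 on 5 to 20 counts per library.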
